A study of Homo sapiens with 24 samples.

Results

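KLHDC7B, ORM1, LRRC2 and FBXO39 are 4 protein-coding genes of 58735 gene rows in the deposited count table. They were picked because their counts were low in vehicle-treated leukemia cells and far higher after 2 compounds were given together. That contrast therefore chose them, and its values below are a description without a test. PolyA-tailed RNA came from the established human acute myeloid leukemia lines THP-1 and MOLM-13, which both have the KMT2A-MLLT3 (MLL-AF9) fusion gene. Each line was treated for 72 h with vehicle (PBS plus DMSO), with 250 µM L-ascorbic acid (LAA, vitamin C, dissolved in PBS), with 1 µM olaparib (an inhibitor of the PARP1 and PARP2 enzymes, dissolved in DMSO), or with the combination of both compounds. The 24 libraries form 8 groups of 3, and no group carried a further genetic change named in the labels. The labels do not say whether replicates were separate cultures, so every p-value given covers the spread among these libraries only, which may be technical.

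The 4 genes have different known roles. KLHDC7B encodes a protein with kelch repeats, which fold into a propeller that binds other proteins. ORM1 encodes alpha-1-acid glycoprotein (orosomucoid), a plasma protein that the liver makes in the acute-phase response under interleukin-6, glucocorticoids and C/EBP factors. LRRC2 encodes a leucine-rich repeat protein known from heart and skeletal muscle. FBXO39 encodes an F-box protein, the kind of subunit that brings substrates to SKP1-CUL1 ubiquitin ligases, and is known as a gene active mainly in testis. Ascorbate helps TET enzymes, which act on methylated DNA, and PARP inhibitors block the repair of single-strand breaks. The integrated stress response, through ATF4 and DDIT3, and the interferon response, through STAT and IRF factors, each switch on a known set of target genes; lists of both were used here as a background to the 4 genes.

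On the deposited coordinates (hg38), KLHDC7B (ENSG00000130487) lies on chromosome 22 from 50545891 to 50551023 on the plus strand. ORM1 (ENSG00000229314) lies on chromosome 9 from 114323056 to 114326475 on the plus strand. LRRC2 (ENSG00000163827) lies on chromosome 3 from 46515423 to 46580099 on the minus strand. FBXO39 (ENSG00000177294) lies on chromosome 17 from 6776223 to 6797101 on the plus strand. Their exons cover 5133, 901, 5622 and 2918 bases respectively. The 250 bases before each RefSeq start site (GRCh38.p14) were searched on both strands for an interferon response core (GAAA, 2 further bases, GAAA), a STAT site (TTCNNNGAA), the C/EBP-ATF response element of stress genes (TGATGNAA), a C/EBP core (TTGCNNAA), a glucocorticoid response element (GNACA and TGTNC, 3 bases apart) and a TATA box (TATAAA, added after the sequences had been read). Matches were found in 2 of the 4 windows. Those windows are shown because the match differs between the pair of members whose levels had the highest Pearson r across the 24 libraries. Capitals mark the match.
KLHDC7B: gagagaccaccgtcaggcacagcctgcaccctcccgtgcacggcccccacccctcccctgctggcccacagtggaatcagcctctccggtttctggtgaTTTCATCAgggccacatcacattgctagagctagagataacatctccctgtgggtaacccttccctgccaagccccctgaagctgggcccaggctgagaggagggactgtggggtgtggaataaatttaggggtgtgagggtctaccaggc
ORM1: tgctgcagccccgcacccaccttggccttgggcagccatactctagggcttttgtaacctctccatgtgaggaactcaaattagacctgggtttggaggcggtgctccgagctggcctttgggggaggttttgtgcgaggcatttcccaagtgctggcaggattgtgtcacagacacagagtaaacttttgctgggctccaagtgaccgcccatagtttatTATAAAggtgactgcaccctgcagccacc
The KLHDC7B window (chr22:50545649-50545898, plus strand) holds the C/EBP-ATF element on the opposite strand, starting 151 bases before the start site. That element is found in 3.15% of 35093 RefSeq promoter windows of the same length. The ORM1 window (chr9:114322848-114323097, plus strand) holds the TATA box 29 bases before the start site, as do 10.7% of all windows somewhere in their length. The LRRC2 and FBXO39 windows held none of the searched letters. CpG dinucleotides numbered 4 in the KLHDC7B window, 5 in ORM1, 11 in LRRC2 and 19 in FBXO39, beside a median of 11 over all windows. The RefSeq start of LRRC2 lies 13797 bases inside the longer deposited gene model, so its window belongs to one of several annotated starts.

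Total counts per library ran from 18666259 to 25265870, and mitochondrially encoded genes took 6.63 to 11% of them in single libraries. All 10 myeloid markers checked (among them CD33, SPI1, MPO and LYZ) had counts in every group, with a summed level of 946 to 1340 CPM (counts scaled to library size) in single libraries. Genes that separate the lines differed between the MOLM-13 groups. A list of 15 genes that are nearly silent in THP-1, chosen by an earlier analysis after their values were seen, summed to 31.6 ± 0.888 CPM (SD, n = 3) in MOLM-13 vehicle and 19.2 ± 1.37 CPM in MOLM-13 olaparib. It summed to only 5.34 ± 0.5 CPM in the libraries labelled MOLM-13 LAA and 4.08 ± 1.04 CPM in those labelled MOLM-13 combination, beside 0.229 to 0.361 CPM in the 4 THP-1 groups. How far this bears on the MOLM-13 values below was not tested. The THP-1 fits use no MOLM-13 library, and the results that matter most are therefore given for THP-1 first.

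KLHDC7B had the highest CPM of the 4 genes in the THP-1 combination libraries. In THP-1 its counts were 10, 22 and 7 in the vehicle libraries, 4, 4 and 1 with LAA, 43, 33 and 59 with olaparib, and 928, 732 and 807 with the combination. The lowest combination library thus held more than every other library by a wide margin, and the LAA libraries lay below all vehicle libraries. Mean levels were 0.632 ± 0.421 CPM (SD, n = 3) with vehicle, 0.149 ± 0.0884 under LAA, 2.1 ± 0.435 under olaparib and 40.3 ± 4.77 under the combination. In the libraries labelled MOLM-13 the counts were 0, 16 and 10 with vehicle, 7, 5 and 3 with LAA, 6, 12 and 21 with olaparib, and 156, 178 and 124 with the combination. The 3 groups without the combination overlapped there, and the combination mean of 7.15 ± 0.953 CPM stood clear of them. In the order of its 8 group means, THP-1 combination, MOLM-13 combination and THP-1 olaparib did not overlap with the next group, whereas the 5 groups below overlapped with their neighbours in the order. In bulk RNA, more cells that express a gene and more RNA per cell cannot be told apart.

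ORM1 followed the same order at the top. In THP-1 its counts were 6, 2 and 9 with vehicle, 6, 6 and 6 with LAA, 30, 18 and 35 with olaparib, and 429, 536 and 501 with the combination. LAA libraries fell within the vehicle range, and every olaparib library lay above both. The means were 0.272 ± 0.182 CPM (SD, n = 3), 0.293 ± 0.0134, 1.3 ± 0.363 and 24 ± 3.44 in that order. In MOLM-13 the counts were 1, 9 and 11 with vehicle, 0, 2 and 3 with LAA, 7, 3 and 6 with olaparib, and 65, 87 and 66 with the combination, which averaged 3.39 ± 0.122 CPM. In MOLM-13 the olaparib libraries lay within the vehicle range. Per length, ORM1 was the most abundant of the 4 genes in the THP-1 combination libraries, at 26.5 ± 3.73 FPKM (fragments scaled to gene length and library size), beside 7.8 ± 0.929 for KLHDC7B, 2.12 ± 0.446 for FBXO39 and 1.17 ± 0.158 for LRRC2.

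LRRC2 differed least between the lines in its combination level. Its THP-1 counts were 8, 9 and 13 with vehicle, 21, 13 and 18 with LAA, 14, 23 and 32 with olaparib, and 125, 160 and 121 with the combination. LAA libraries overlapped with vehicle, olaparib libraries lay narrowly above it, and the combination libraries stood far from all others. The means were 0.487 ± 0.169 CPM (SD, n = 3), 0.843 ± 0.178, 1.06 ± 0.31 and 6.62 ± 0.901. In MOLM-13 the counts were 6, 3 and 7, then 5, 11 and 19, then 6, 6 and 26, and 71, 123 and 88 in the same order of treatments. The third olaparib library, at 26 counts, was the highest outside the combination and was also the library with the largest mitochondrial share, 11%; the part of that share in its level was not tested. The MOLM-13 combination mean was 4.34 ± 0.654 CPM.

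FBXO39 was the only member whose LAA libraries in THP-1 all lay above the vehicle libraries. Its THP-1 counts were 23, 9 and 9 with vehicle, 35, 48 and 56 with LAA, 23, 53 and 23 with olaparib, and 119, 163 and 102 with the combination. Olaparib libraries spread from near the vehicle level to near the LAA level. The means were 0.628 ± 0.291 CPM (SD, n = 3), 2.26 ± 0.489, 1.58 ± 0.889 and 6.24 ± 1.32. In MOLM-13 the counts were 19, 7 and 7 with vehicle, 13, 10 and 10 with LAA, 10, 7 and 19 with olaparib, and 51, 88 and 42 with the combination, a mean of 2.76 ± 0.745 CPM. The MOLM-13 combination libraries of FBXO39 overlapped with THP-1 LAA, so this gene's 8 levels form a continuous series below the THP-1 combination.

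**Figure D1:**
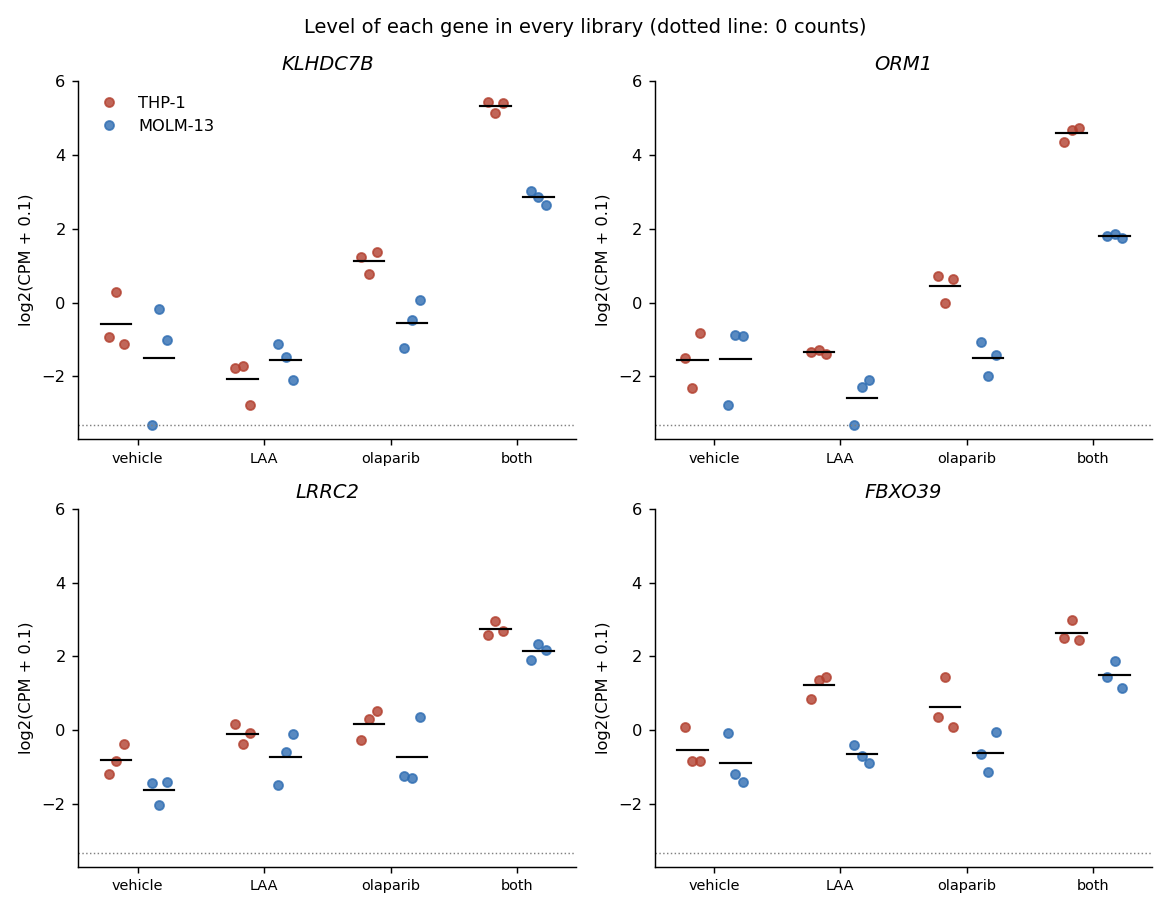
Level of KLHDC7B, ORM1, LRRC2 and FBXO39 in each of the 24 libraries, as log2(CPM + 0.1) on the vertical axis, by treatment (both means LAA plus olaparib); points are libraries, black bars are means of 3, and the dotted line is 0 counts. The combination libraries are the highest of their line in every panel, and KLHDC7B and ORM1 differ more between THP-1 (red) and MOLM-13 (blue) there than LRRC2 and FBXO39.

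As a description of the contrast that chose them, the combination against vehicle in THP-1 gave log2 fold changes of 6.0 ± 0.24 (SE) for KLHDC7B, 6.43 ± 0.28 for ORM1, 3.76 ± 0.34 for LRRC2 and 3.26 ± 0.37 for FBXO39. These are 63.8-fold, 86.4-fold, 13.5-fold and 9.58-fold. In MOLM-13 the values were 4.19 ± 0.52, 3.44 ± 0.55, 4.19 ± 0.52 and 2.49 ± 0.46. The mitochondrial share of counts moved with the same contrast. It was 7.77 to 9.47% with the THP-1 combination and 6.81 to 7.49% with vehicle, and 8.73 to 9.31% and 6.67 to 6.74% in MOLM-13, so the groups did not overlap in either line. Its part in the rise of the 4 genes was not tested. Over all genes tested, 27.1% of 16331 were called in THP-1 and 12.2% of 16160 in MOLM-13, where called means an adjusted p under 0.05 (edgeR's quasi-likelihood test with Benjamini-Hochberg adjustment). Among the 1956 tested protein-coding genes under 2 CPM in THP-1 vehicle, ORM1 ranked 2 by this change, KLHDC7B 3, LRRC2 12 and FBXO39 24. In that order TENM4 at 6.44 stood just above ORM1. LRRC2 stood between RCAN2 at 3.96 and FGF2 at 3.65, and FBXO39 between OLAH at 3.26 and IL31RA at 3.21. In MOLM-13 the ranks among 1856 such genes were 4 for KLHDC7B, 5 for LRRC2, 6 for ORM1 and 17 for FBXO39.

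The 4 genes differed in how the single compounds relate to the combination. The interaction is the combination effect minus the sum of both single effects on the log2 scale, and it shares its libraries with the rule, so no p is given. In THP-1 it was 6.28 ± 0.56 (SE) for KLHDC7B and 4.08 ± 0.60 for ORM1. For LRRC2 it was 1.80 ± 0.51. For FBXO39 it was 0.17 ± 0.53, with a 95% interval from -0.87 to 1.21, so that its LAA and olaparib changes summed to nearly the combination change. In MOLM-13 the interactions were 4.10 ± 0.88 for KLHDC7B, 5.49 ± 0.98 for ORM1, 1.55 ± 0.78 for LRRC2 and 2.07 ± 0.69 for FBXO39. Against olaparib alone, the THP-1 combination was higher by 4.24 ± 0.20 for KLHDC7B, 4.19 ± 0.22 for ORM1, 2.61 ± 0.31 for LRRC2 and 1.97 ± 0.33 for FBXO39. Against LAA alone it was higher by 8.04 ± 0.30, 6.32 ± 0.28, 2.95 ± 0.32 and 1.46 ± 0.32 in the same order.

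**Figure D2:**
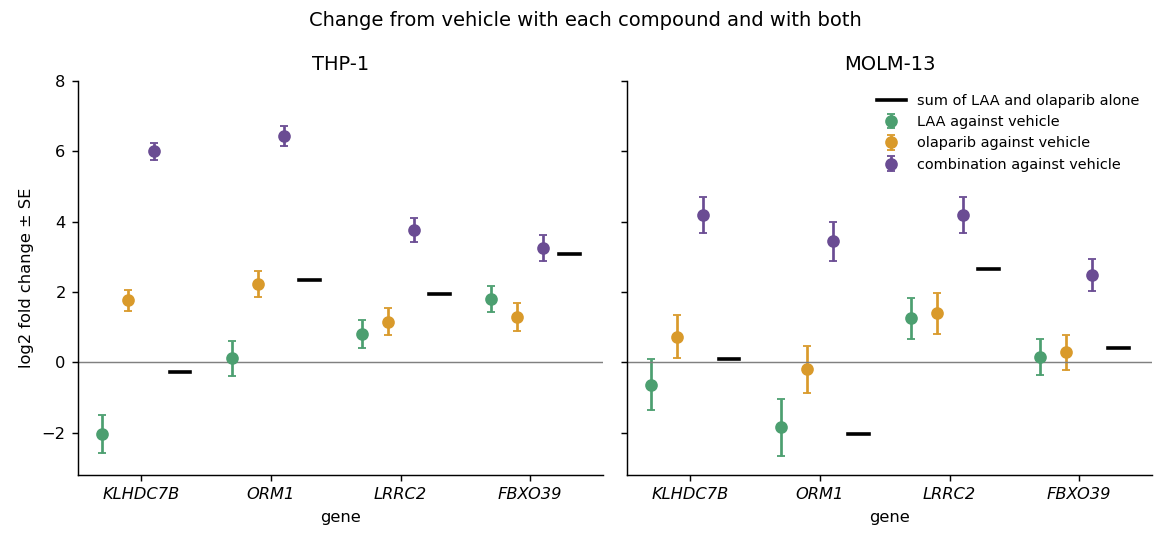
Log2 fold change against vehicle (vertical axis, ± SE) for LAA, olaparib and the combination in THP-1 (left) and MOLM-13 (right), 3 libraries per group; the black bar is the sum of the changes with LAA alone and olaparib alone. In THP-1 the bar lies next to the combination value for FBXO39 (interaction 0.17) and far below it for KLHDC7B (6.28).

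The fold change of LAA against olaparib uses none of the libraries that chose the genes, although the filter on low counts and the spread were estimated on all 12 libraries of the line. In THP-1 KLHDC7B and ORM1 were lower with LAA than with olaparib, and LRRC2 and FBXO39 were not called. KLHDC7B differed by a log2 fold change of -3.80 ± 0.42 (SE; adjusted p = 2e-06, edgeR), or 13.9-fold lower, with all LAA libraries below all olaparib libraries. ORM1 differed by -2.13 ± 0.37 (adjusted p = 0.000779, edgeR), or 4.39-fold lower, again without overlap between the libraries. These 2 of 4 calls stand beside 2.96% of all 16331 genes called in either direction and 1.28% called lower, and 9.54% of all genes had every LAA library below every olaparib library. Both calls held in every alternative fit tried. Fitted on the 6 LAA and olaparib libraries alone, an alternative chosen after the data were seen, KLHDC7B was at -3.79 (adjusted p = 5.02e-05, edgeR) and ORM1 at -2.13 (adjusted p = 0.0181, edgeR). For LRRC2 the difference was -0.35 (95% interval -1.03 to 0.34), and for FBXO39 it was 0.52 (-0.16 to 1.19), so differences within these intervals were not excluded. In MOLM-13 edgeR called none of the 4 genes in this comparison, where 5.06% of 16160 genes were called. None of the 4 had an unadjusted p under 0.05, which 3685 of the 16160 genes reached. DESeq2 called 0 of the 2 it tested. KLHDC7B was at -1.37 ± 0.68 and ORM1 at -1.66 ± 0.84 there. ORM1 reached the filter level in MOLM-13 in the 3 combination libraries and in 0 others, so it was tested there only through the group that chose it. With the 6 LAA and olaparib libraries alone, 2 of the 4 genes (LRRC2 and FBXO39) passed the filter in MOLM-13 and 0 were called.

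The single compounds against vehicle share the vehicle libraries with the rule, which favoured low vehicle levels, and their tests are given as measurements that support no further statement. With olaparib in THP-1, KLHDC7B rose by 1.76 ± 0.31 (SE; adjusted p = 0.00576, edgeR) and ORM1 by 2.24 ± 0.37 (adjusted p = 0.00361, edgeR), while 0.269% of all genes were called and 8.42% had all olaparib libraries above all vehicle libraries. LRRC2 at 1.15 ± 0.38 and FBXO39 at 1.29 ± 0.40 were not called. The KLHDC7B call was lost without vehicle replicate 1 (adjusted p = 0.0629, edgeR) or vehicle replicate 3 (0.0781), and both calls were lost in limma on log2(FPKM + 1). With LAA in THP-1, FBXO39 rose by 1.80 ± 0.38 (adjusted p = 0.01, edgeR) and KLHDC7B fell by 2.04 ± 0.53 on the log2 scale (adjusted p = 0.0491, edgeR), where 1.49% of all genes were called, 10.1% had all LAA libraries above all vehicle libraries and 9.69% had all below. ORM1 at 0.11 ± 0.50 and LRRC2 at 0.80 ± 0.39 were not called.

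Those LAA calls rest on few counts. The KLHDC7B call was lost without vehicle replicate 2 (log2 fold change -1.39, adjusted p = 0.43, edgeR), without LAA replicate 1, 2 or 3 (adjusted p = 0.104, 0.0855 and 0.272) and with DESeq2's size factors in edgeR (0.0505). The FBXO39 call was lost without vehicle replicate 2 (1.62, adjusted p = 0.0853, edgeR), vehicle replicate 3 (0.068) or LAA replicate 3 (0.0623). In MOLM-13 edgeR called none of the 4 genes with LAA, where 1.88% of all genes were called. There 2 of the 4 (ORM1 at -1.85 and LRRC2 at 1.25) had an unadjusted p under 0.05, as did 2323 of all 16160 genes. ORM1 was tested in MOLM-13 only through the combination libraries. With olaparib edgeR called none of the 4, where 0.00619% of all genes were called. There 1 of the 4, LRRC2 at 1.39, had an unadjusted p under 0.05, as did 1354 of all 16160 genes. DESeq2 called 0 of 4 and 0 of the 2 it tested in those comparisons.

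The difference between the lines was taken as the THP-1 effect minus the MOLM-13 effect, from one model of the 24 libraries. None of the 4 genes was called by edgeR for the LAA effect (0.14% of 17089 genes called), the olaparib effect (0.00585%) or the LAA minus olaparib difference (0.0995%). Unadjusted p under 0.05 was reached by 2, 1 and 1 of the 4 genes in these, beside 1095, 747 and 1185 of all 17089 genes. DESeq2 called 0 of 4 in the first and the last and gave no adjusted p in the second. The widest differences were 2.44 ± 0.71 (SE) for the olaparib effect on ORM1 (adjusted p = 0.901, edgeR) and -2.41 ± 0.94 for the LAA minus olaparib difference on KLHDC7B (adjusted p = 0.584, edgeR). As a description, the combination effect was larger in THP-1 by 1.80 ± 0.63 for KLHDC7B, 3.00 ± 0.62 for ORM1 and 0.78 ± 0.60 for FBXO39, and differed by -0.42 ± 0.62 for LRRC2. Each of these values also rests on the libraries labelled MOLM-13 described above.

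Across the 24 libraries KLHDC7B and ORM1 were the most alike pair by Pearson r (0.934 on log2 CPM with a prior count of 2). KLHDC7B and FBXO39 were the least alike (0.689). The first pair depended on the measure. With Spearman's rho it was LRRC2 and FBXO39 at 0.807, beside 0.786 for KLHDC7B and ORM1. By Pearson r over the 12 THP-1 libraries it was ORM1 and LRRC2 at 0.956, beside 0.943 for KLHDC7B and ORM1. Over the MOLM-13 libraries KLHDC7B and ORM1 were again first, at 0.915. The libraries of a group share their treatment, and the combination libraries are high for all 4 genes by choice. Without the 6 combination libraries, an alternative chosen after the data were seen, KLHDC7B and ORM1 gave r = 0.642 over 18 libraries and LRRC2 and FBXO39 gave 0.589. KLHDC7B and FBXO39 gave -0.0574.

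The genes most like each member across the 24 libraries, among 13562 protein-coding genes compared, were taken by Pearson r on log2 CPM. For KLHDC7B they were FAM129A (0.955), STIM1, an endoplasmic reticulum calcium sensor (0.944), TRIB3, a pseudokinase of the stress response (0.936), GDF15, a stress-induced cytokine (0.925), and GOT1, an aspartate aminotransferase (0.921). For ORM1 they were SESN2, a stress-induced sestrin (0.96), DDIT3, the factor CHOP (0.954), GOT1 (0.953), FAM129A (0.952) and TRIB3 (0.944). For LRRC2 they were AFAP1, an actin-binding protein (0.945), TRIB3 (0.938), the glycyl-tRNA synthetase GARS (0.926), GOT1 (0.926) and MTHFD1L, a mitochondrial folate enzyme (0.921). For FBXO39 they were the RNA sensor IFIH1 (0.928), CMPK2 (0.926), IFIT3 (0.916), IFIT2 (0.915) and PARP9 (0.915), all of which are on the interferon-stimulated list described further on.

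Without the combination libraries these values fell to between 0.509 (GOT1) and 0.764 (FAM129A) for KLHDC7B, 0.583 (TRIB3) to 0.749 (SESN2) for ORM1, and 0.513 (MTHFD1L) to 0.742 (GARS) for LRRC2. For FBXO39 they also fell, to between 0.786 (IFIT2) and 0.849 (IFIH1). The first 5 genes themselves depended on the measure. With Spearman's rho, 2 of the 5 were again among the first 5 for KLHDC7B, 0 for ORM1, 1 for LRRC2 and 2 for FBXO39. Over the 12 THP-1 libraries alone the numbers were 1, 3, 0 and 0, with GADD45A first for KLHDC7B, DDIT3 for ORM1, LYZ for LRRC2 and SCARB2 for FBXO39.

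**Figure D3:**
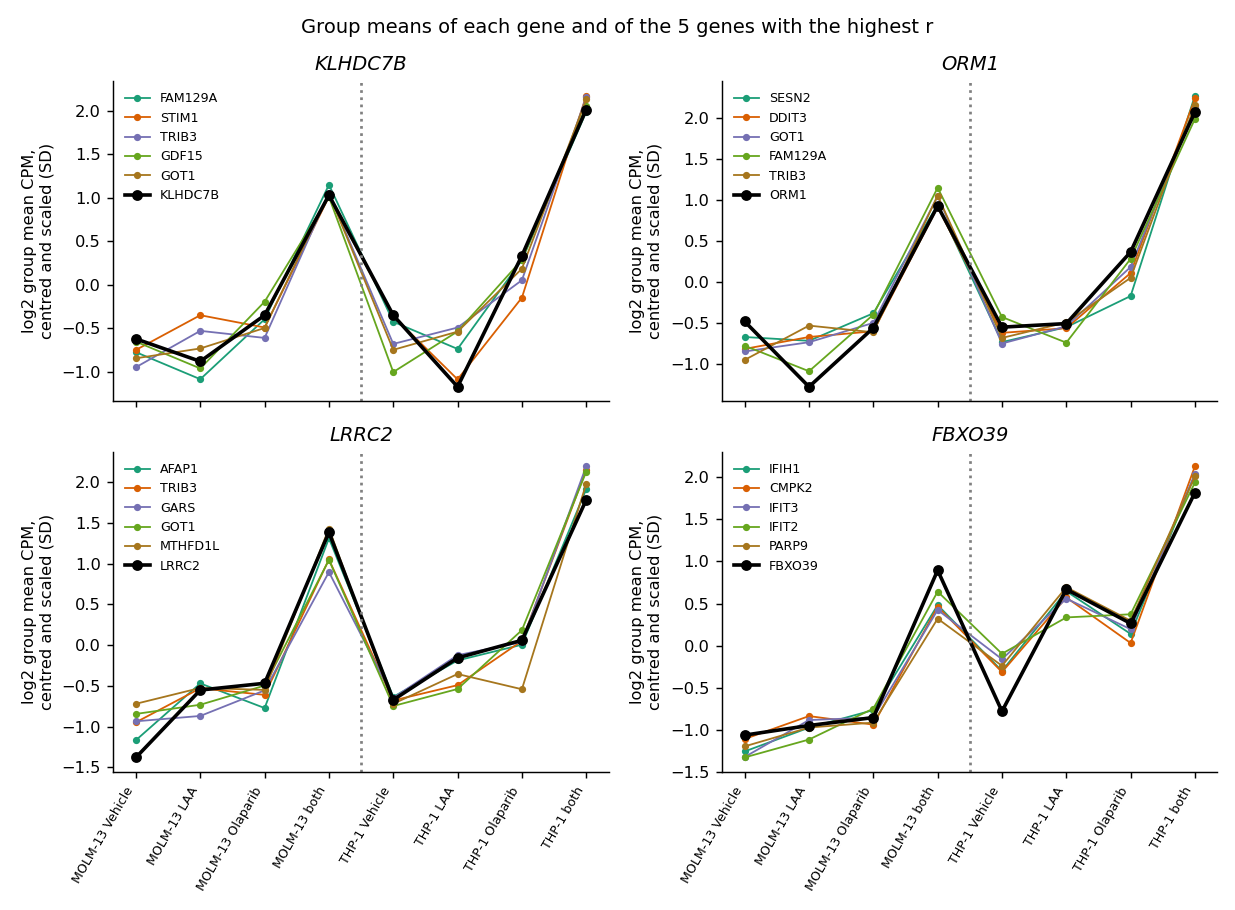
Group means of each gene (black) and of the 5 genes with the highest Pearson r (colours), as log2 mean CPM centred and scaled to SD units over the 8 groups on the horizontal axis (both means LAA plus olaparib). In THP-1 KLHDC7B, FAM129A and STIM1 are lower with LAA than with vehicle and TRIB3, GDF15 and GOT1 are higher, whereas FBXO39 and its 5 interferon-stimulated genes all climb with LAA above vehicle.

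Lists of the stress and interferon programs were followed in the same fits, and share control libraries with the members' own comparisons. Of 40 interferon-stimulated genes, 39 rose and 0 fell with the combination in THP-1, with a median log2 fold change of 2.16 beside -0.01 over all genes. IFI44L, OAS3 and IFITM1 had the smallest adjusted p-values, with log2 fold changes of 4.02, 2.67 and 2.64. With LAA alone in THP-1, 35 of the 40 rose. Over all genes 0.937% rose and 0.551% fell with LAA. With olaparib alone 9 of the 40 rose, beside 0.184% of all genes. Of 24 tested genes of the integrated stress response, 21 rose and 1 fell with the combination in THP-1 (median 1.14), with TRIB3 at 2.88, GDF15 at 5.41 and the amino acid transporter SLC7A5 at 1.13. With LAA alone 1 rose and 1 fell, and with olaparib alone 2 rose and 0 fell. Between LAA and olaparib in THP-1, 23 of 40 interferon-stimulated genes were higher with LAA and 0 lower, and 5 of 24 stress genes were lower with LAA and 0 higher, where 1.68% of all genes were higher and 1.28% lower. Over 24 libraries the median r to the interferon-stimulated genes was 0.87 for FBXO39, 0.81 for ORM1, 0.80 for LRRC2 and 0.70 for KLHDC7B. The median r to the stress genes was 0.85 for ORM1, 0.80 for KLHDC7B and LRRC2, and 0.78 for FBXO39. Over all genes kept it was 0.01 for KLHDC7B, ORM1 and FBXO39 and 0.0 for LRRC2. The combination libraries are high for the 4 genes by choice, and most genes of both lists rose there. High r to both lists was thus set in part by that choice, and no list value without those libraries is given here.

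Relatives of the 4 genes by family or function gave mixed calls. Of 21 acute-phase genes beside ORM1, 5 were tested in THP-1, of which 1 (ORM2) rose and 2, C3 at -0.80 and A2M at -0.82, fell with the combination. ORM2 was tested only through the combination libraries, and its split of reads with ORM1 is uncertain. Among the untested acute-phase genes, CRP, APCS, SAA2, SAA4, FGA, FGB, FGG, SERPINA3, LCN2 and HAMP were at 0 counts in the THP-1 combination libraries. The other untested genes had low levels that moved both ways from vehicle to combination in THP-1. Mean CPM went from 0.028 to 0.227 for SAA1, 0.134 to 0.326 for CFB, 0.0172 to 0.0863 for CP and 0.0169 to 0.0317 for HPX. It went from 0.239 to 0.0468 for LBP and from 0.228 to 0.181 for ITIH4. Of 11 tested regulators of the acute phase, 2 rose and 3 fell, among them CEBPB at 1.00 (2.01-fold), CEBPA at -0.35 and CEBPD at -0.34. Of 6 tested KLHDC genes, 0 rose and 2 fell, KLHDC3 at -0.47 and KLHDC2 at -0.45, and the closest name, KLHDC7A, was at 0 counts in every THP-1 group. Of 31 tested FBXO genes, 2 rose and 4 fell, and of 5 core subunits of the ubiquitin ligase, CUL1 (0.53) and SKP1 (0.18) rose. Of 34 tested LRRC genes, 6 rose and 3 fell. These counts stand beside 13.5% of all genes called higher and 13.5% called lower with the THP-1 combination.

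Of 12 genes of interferon signalling, 4 rose and 3 fell with the THP-1 combination, with IRF7 at 1.70. Of 9 mitochondrial biogenesis genes 1 rose and 1 fell, and of 4 tested germline genes (of 25 listed) 0 rose and MAGEA4 fell by 0.34 on the log2 scale. Markers of other cells were low. Of 4 erythroid markers 0 were tested. Of 10 epithelial, fibroblast and hepatocyte markers 3 were tested, and DCN, KRT19, COL1A2 and TTR were at 0 counts in the THP-1 combination libraries. That list nevertheless summed to 9.52 ± 1.94 CPM (SD, n = 3) with the combination and 6.15 ± 1.98 with vehicle in THP-1, ranges of 7.33 to 11 and 4.79 to 8.43, with KRT8 called at 1.02. The 4 B cell markers summed to 16.5 to 18.5 CPM with the combination and 9.32 to 10.8 with vehicle, with PAX5 called at 1.09 and MS4A1 at 0 counts. The 6 T and NK markers summed to 13.3 to 15.4 CPM with the combination and 12.6 to 13.9 with vehicle. The 10 myeloid markers summed to 1320 to 1340 CPM with the combination and 1090 to 1120 with vehicle, where LYZ (1.42) and CD14 (1.45) rose and ITGAM (-0.99) fell. Their part in the levels of the 4 genes was not tested.

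ORM2, the near-identical copy of ORM1, starts 3394 bases beyond it on the same strand. Summed over 3 libraries it had 62 counts with the THP-1 combination and 1 with vehicle, a ratio of 64.9 per library size with a 95% counting interval from 11.2 to 2600. It made up 4.06% of the counts of both genes in the THP-1 combination libraries and 4.39% in the MOLM-13 ones. How the authors' counting shared reads between the copies is not given in the sources used here, so the split between ORM1 and ORM2 is uncertain. In THP-1 its mean was 0.0172 CPM with vehicle, 0.0 with LAA and 0.0164 with olaparib.

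Other genes around the members were also higher in THP-1. Within 100 kb lie 29 protein-coding rows, of which 21 were tested with the THP-1 combination: 11 rose and 0 fell, beside 13.5% of all genes called higher. Of the 11, at least ORM2 and TEKT1 reached the filter on low counts only through the combination libraries, the group that chose the members. The split of reads between ORM2 and ORM1 is also uncertain, so the count of 11 supports no further statement. In MOLM-13 3 of 20 rose and 0 fell, beside 4.85%. Around KLHDC7B 7 of 13 tested rows rose in THP-1. ADM2, a peptide hormone gene 59451 bases away, rose by 2.13 ± 0.15 (SE) in THP-1 and by 1.79 ± 0.17 in MOLM-13. TYMP, the thymidine phosphorylase gene, rose by 1.44 ± 0.10 in THP-1, from 55.5 ± 4.67 to 152.0 ± 17.4 CPM (SD, n = 3), and was at -0.01 ± 0.15 in MOLM-13. ODF3B, whose gene body overlaps that of TYMP so that their counts may be split unevenly, rose by 1.39 ± 0.15 in THP-1 and was at 0.14 ± 0.22 in MOLM-13. LMF2 (0.66), ARSA (0.60), NCAPH2 (0.24) and one of 2 rows named SCO2 (2.19) also rose in THP-1. SYCE3, whose gene ends only 89 bases from KLHDC7B, was too low to be tested. Near ORM1, AKNA rose by 0.91 ± 0.09 in THP-1 and 0.31 ± 0.10 in MOLM-13.

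FBXO39 starts 576 bases beyond XAF1, an interferon-stimulated gene on the same strand that is also on the list above. XAF1 rose by 1.2 ± 0.11 (SE) in THP-1 and 1.54 ± 0.21 in MOLM-13 with the combination. Its THP-1 level was 17.4 ± 2.44 CPM (SD, n = 3) with vehicle, 24.9 ± 2.68 under LAA, 19.6 ± 1.22 under olaparib and 40.4 ± 4.56 under both. TEKT1, which overlaps FBXO39 by 7969 bases on the opposite strand without shared exons in GENCODE 29, rose by 3.33 ± 0.62 in THP-1, from 0.18 ± 0.144 to 1.95 ± 0.739 CPM. In MOLM-13 it was at 1.85 ± 0.72 and was not called.

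LRRC2 is overlapped on the opposite strand by LRRC2-AS1 and TDGF1, and shares 110 exonic bases with opposite-strand genes in GENCODE 29. The library kit does not mark the strand, so reads in shared bases cannot be assigned to either gene. LRRC2-AS1, too low to be tested, had 40 counts with the THP-1 combination and 1 with vehicle, a ratio of 41.9 (95% counting interval 7.09 to 1690). TDGF1 had 13 and 1 counts, a ratio of 13.6 (2.04 to 578). LRRC2 itself had 406 and 30 counts. Of the other neighbours of LRRC2 only ALS2CL was tested, at 0.37 ± 0.24 in THP-1, and it was not called.

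**Figure D4:**
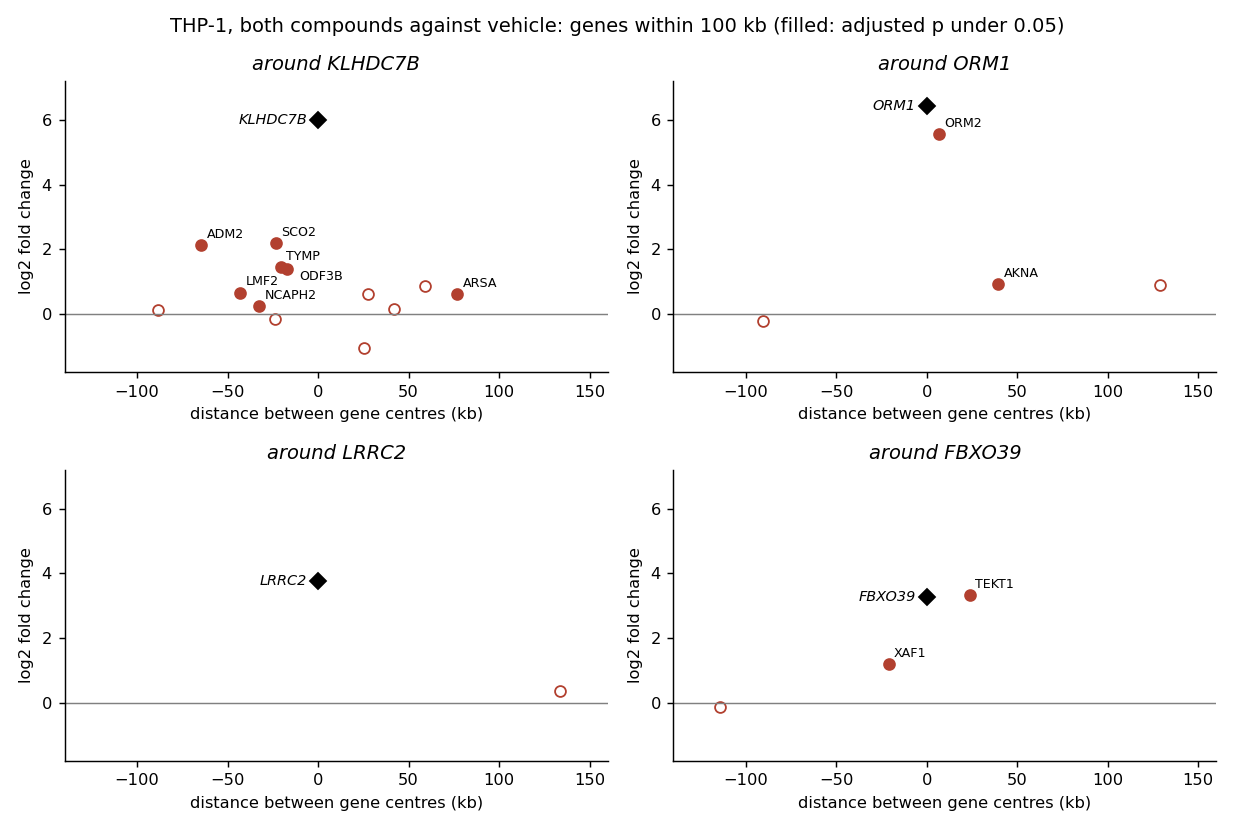
Log2 fold change of the THP-1 combination against vehicle (vertical axis) for the tested protein-coding genes within 100 kb of each member, by distance between gene centres in kb (horizontal axis); black diamonds are the members, filled circles passed an adjusted p of 0.05 and open circles did not. Around KLHDC7B 7 of 13 neighbours passed and all 7 lie above 0, the highest being SCO2 at 2.19 beside 6.0 for KLHDC7B; the fitted ORM2 value rests on 1 vehicle count.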

How the data were processed

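The 24 libraries were made from polyA-selected RNA without strand marking, per the labels' protocols. HISAT2, SAMtools, DESeq2 and hg38 are named in the submitters' processing notes. Not given in the sources used here are their versions, how reads were counted, the strand option and the gene annotation. The authors deposited whole-number counts per gene, without normalization, and FPKM values (counts per gene length and library size).

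Each line's 12 libraries were fitted with edgeR 4.0.16 in R 4.3.3 (filterByExpr, TMM, quasi-likelihood F test, Benjamini-Hochberg over all genes tested, threshold 0.05), and all 24 libraries for differences between lines. All 4 genes passed the filter in each line, ORM1 in MOLM-13 only through the combination libraries. Levels are CPM on TMM-scaled library sizes. Standard errors were derived from the log2 fold change and its F value, and 95% intervals from them by a normal approximation. Further tables were made with Python 3.11.15 and SciPy 1.17.1. Total counts of 18666259 to 25265870 per library limit precision at low levels (1 KLHDC7B count was worth 0.0467 CPM in THP-1 LAA replicate 3); intervals on counts cover counting error only.

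The 4 genes, the gene lists and the tests were chosen with earlier results of these data known. The genes named were the 4, all protein-coding neighbours within 100 kb and overlapping rows, ORM2, the 5 genes of highest Pearson r to each, up to 3 called genes per list, and the genes next to each in the order of change; some genes that this rule names are not reported here. Alternatives were DESeq2 1.42.0, its size factors or total-count scaling in edgeR, no filter, limma 3.58.1 on log2(FPKM + 1) and log2(FPKM + 0.1), a replicate block, leaving out each library and, chosen after the data were seen, the LAA and olaparib libraries of a line alone. Promoter windows and start sites are RefSeq's (GRCh38.p14), and shared exons are from GENCODE 29. No protein sequences were used here.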

Additional observations from a re-analysis of the deposited data

How the results depend on the processing

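Of the 9 comparisons tested, the number of the 4 genes called was the same in every alternative that gave a value for 7: 2 for LAA against olaparib in THP-1, and 0 for the 3 MOLM-13 comparisons and the 3 line differences. DESeq2 gave no adjusted p for the 4 genes in the line difference of the olaparib effect. For LAA against vehicle in THP-1 the number was 2, and became 1 with DESeq2's size factors in edgeR, 1 with the replicate block, 0 in limma at either pseudocount, and 0 to 2 when single libraries were left out. For olaparib against vehicle in THP-1 it was 2, and became 0 in limma at either pseudocount and 1 to 2 when single libraries were left out. The pseudocount is large beside FPKM values under 1, which shrinks these changes: KLHDC7B with LAA was -0.12 in limma on log2(FPKM + 1) and -0.74 on log2(FPKM + 0.1). The described changes with the THP-1 combination against vehicle moved too. In limma on log2(FPKM + 1) they were 2.97 for KLHDC7B, 4.4 for ORM1, 1.0 for LRRC2 and 1.36 for FBXO39. Alternatives on counts gave 5.75 to 6.65, 6.08 to 6.99, 3.54 to 4.05 and 3.08 to 3.74 in that order. The KLHDC7B interaction in THP-1 ran from 2.76 in limma to 6.56.

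No shared effect of replicate number was seen. Deviations of same-numbered libraries from their group means had a median correlation of 0.00283 in THP-1 and -0.000345 in MOLM-13, with 0 of 18 pairs over 0.1 in each line. In these lines 2 and 3 of 12 libraries correlated best with their own number. Such correlations cannot show whether same-numbered libraries were handled together. The block changed the genes called with LAA in THP-1 from 243 to 205, with olaparib from 44 to 32, and between the compounds from 483 to 402, and KLHDC7B with LAA in THP-1 had an adjusted p of 0.0814 with the block (edgeR).

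Counts of genes called over the whole table varied by more than 1.5 times. They ran from 114 to 388 (243 as reported) for LAA against vehicle, 6 to 124 (44) for olaparib and 257 to 766 (483) for LAA against olaparib in THP-1. In MOLM-13 they ran from 113 to 575 (303), 0 to 194 (1) and 188 to 1640 (817). For the line differences they ran from 13 to 102 (24), 0 to 34 (1) and 10 to 182 (17).

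Some values that were not called, or that were described without a test, changed sign when single libraries were left out, with these ranges of log2 fold change. ORM1 with LAA in THP-1 ran from -0.24 to 0.67, and the FBXO39 interaction in THP-1 from -0.30 to 0.73. In MOLM-13, KLHDC7B with LAA ran from -1.21 to 0.24, FBXO39 with LAA from -0.15 to 0.80, ORM1 with olaparib from -0.70 to 0.17 and FBXO39 with olaparib from -0.12 to 0.94. LAA against olaparib there ran from -0.39 to 0.26 for FBXO39 and -0.59 to 0.82 for LRRC2. The line difference for LRRC2 ran from -0.77 to 0.01 in the LAA effect, -0.55 to 0.72 in the olaparib effect and -1.17 to 0.24 in the LAA minus olaparib difference, and that for ORM1 in the last ran from -1.0 to 0.11. In limma the sign also changed for ORM1 with olaparib in MOLM-13 (0.05 at pseudocount 0.1) and for the LRRC2 line difference in the LAA effect (0.01 at pseudocount 1), the olaparib effect (0.04 at 1 and 0.14 at 0.1) and the combination effect (0.23 and 0.16). The cause was not tested.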
